A study of Mus musculus with 4 samples.

Results

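The neurotransmitter receptor genes of the embryonic mouse brain were read from RNA sequencing of brains with and without a macroH2A gene. The genes were chosen by name. A gene belonged if it was protein coding, was listed in both deposited count tables and had a symbol of the ionotropic or metabotropic glutamate, GABA-A, GABA-B, glycine, nicotinic, muscarinic, serotonin or dopamine receptor families. This gave 68 genes in 12 classes out of 19150 genes in both tables, of which 64 had enough reads to be tested. Of these 68 genes, 44 encode subunits of ligand-gated ion channels and 24 encode G protein-coupled receptors.

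MacroH2A is a variant of histone H2A with a large extra domain, and it is often found in chromatin of silent genes. The study compared brains of mouse embryos of the C57BL/6 strain at E13.5 (days of embryonic development). The knockout group (KO) had 2 libraries, named KO2 and KO4, and the wild-type group (WT) had 2 libraries, named WT6 and WT8. All 4 libraries shared strain, age and tissue, and the labels give neither which macroH2A gene was deleted, nor whether the deletion was in every cell, nor how many embryos or litters went into a library. The p-values therefore reflect how far these libraries scatter, and that scatter may be technical. Reads of H2afy, which encodes macroH2A1, numbered 1368 and 1267 in KO2 and KO4 and 5538 and 5593 in WT6 and WT8, so that the libraries followed their labels.

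Ionotropic receptors are assemblies of subunits around an ion pore, and the subunits present set which transmitter opens the pore and how fast it closes. Metabotropic receptors act through G proteins and change the cell more slowly. At the embryonic stage studied here neurogenesis is in full course and few synapses exist, and GABA and glutamate are known to act on migrating neurons and progenitors before synapses form.

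Depth was even, from 16470090 to 18136745 reads in genes per library. Levels are given as CPM, read counts scaled to library size with trimmed means, and levels of different genes are compared as CPM per kilobase of exon (RPKM). Marker genes of neurons summed to between 5894 and 6435 CPM per library, and those of neural progenitors to between 1964 and 2281 CPM. The 8 markers of ventral forebrain and the 6 of dorsal telencephalon were all tested. Of 8 markers of midbrain and hindbrain none reached the level for a test. Pax2 had 1, 4, 3 and 5 reads in KO2, KO4, WT6 and WT8. Lmx1b had 1 and 2 reads in KO4 and WT8, and the other 6 were not analysed here. Whether the samples held midbrain and hindbrain was not tested, so the levels below may not be those of whole brain. WT6 stood apart on the forebrain lists. Its ventral forebrain markers summed to 597 CPM against 937 to 1048 CPM in the other libraries. Its dorsal telencephalon markers summed to 2345 CPM against 1613 to 1843 CPM. WT8 stood apart on the erythroid list, whose markers summed to 1105 CPM against 513 to 672 CPM in the other libraries. No marker gene of these lists passed the test between genotypes. Of the 6 dorsal telencephalon markers, 2 had both KO libraries below both WT libraries, Emx1 (log2 fold change -0.47) and Emx2 (-0.20). Emx1 measured 145 and 137 CPM in KO2 and KO4 and 194 and 197 CPM in WT6 and WT8. Of the 8 ventral forebrain markers, 3 had both KO libraries above both WT libraries. Over all tested genes 19.4% had both KO libraries below and 20.1% had both above. Other lists also held such genes. Endothelium markers had 3 of 6 below and 0 above, and microglia markers 3 of 7 below and 0 above. Neuron markers had 4 of 10 above and 2 below. The part of these marker differences in the receptor values below was not tested. In such bulk samples fewer cells of a type cannot be told apart from less RNA per cell.

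The receptor repertoire was dominated by a few subunits. Of the 68 genes, 30 averaged 1 RPKM or more over the 4 libraries and 38 averaged less. Grik5, a kainate receptor subunit, was the highest at 54.9 RPKM, followed by Gabbr1, the ligand-binding subunit of the GABA-B receptor, at 31.5 RPKM. Next came Grik3 at 15.0, Gria1 at 14.4, Gria2 at 13.3 and Chrnb2 at 10.6 RPKM. These 6 genes also held the first 6 places when the longest transcript was used as the length, with Grik5 and Gabbr1 in the same places. Neighbours in that order were often not separable: Gria1 ranged from 13.6 to 16.1 RPKM over the libraries and Gria2 from 10.9 to 15.0 RPKM, so their ranges overlapped, whereas the lowest Grik5 value of 50.8 RPKM was above the highest Gabbr1 value of 34.4 RPKM. The lowest receptors were Htr1d at 0.0326 RPKM, Glra3 at 0.0374 RPKM and Grin2a at 0.0689 RPKM.

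**Figure D1:**
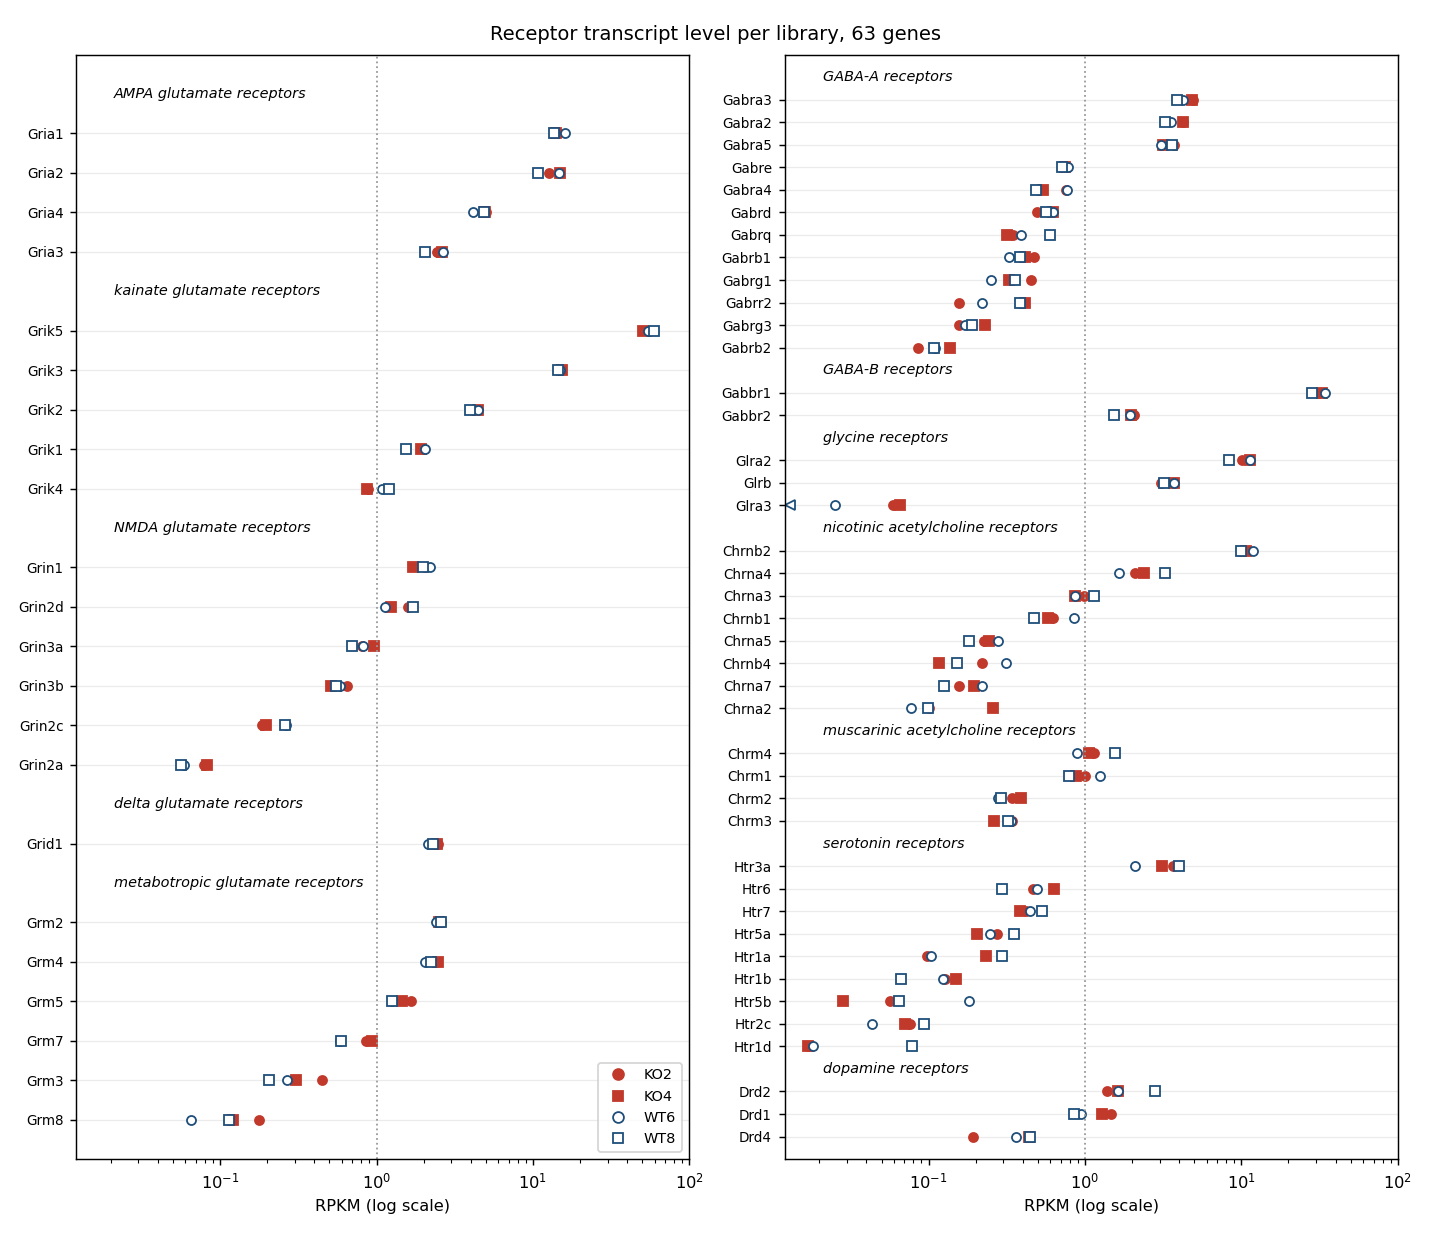
Level of 63 receptor genes in each library, in RPKM on a log axis, grouped by receptor class. Each point is 1 library, filled for KO and open for WT, the dotted line is 1 RPKM, and the arrow at the left edge is the WT8 library of Glra3 with 0 reads. Genes within a class span a wide range, from 54.9 RPKM for Grik5 to 1.01 RPKM for Grik4 among the kainate subunits.

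Sequence before the start sites is shown for 4 of these genes, the 2 highest receptors and 2 glutamate receptors that hold parts of a known neuronal element. Promoters were taken from RefSeq on GRCm38.p6, as the 250 bases before each start. They matched 50 of the 68 genes, with 1 promoter kept per receptor gene, beside 21263 promoters of 17492 coding genes. Shares of receptor and coding promoters therefore compare unlike units. Some receptor promoters lay far from the gene start, such as that of Grin2d at 11697 bases. Each stretch below has 80 bases, runs 5′ to 3′ in the direction of the gene, and has the matched letters in capitals. The Gria2 stretch is chr3:80802959-80803038 on the minus strand and holds, on the opposite strand, AGCAC and GGACAG with 3 bases between them. The Grm2 stretch is chr9:106656280-106656359 on the minus strand and holds TTCAGCACC and GGACAG. Their spacing differs from that in Gria2, and the Grm2 promoter had no AGCAC and GGACAG with 3 bases between them. The Grik5 stretch, chr7:25072390-25072469 on the minus strand, and the Gabbr1 stretch, chr17:37045881-37045960 on the plus strand, hold GGGCGG.
Gria2: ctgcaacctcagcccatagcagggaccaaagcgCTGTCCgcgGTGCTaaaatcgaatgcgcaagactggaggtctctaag
Grm2: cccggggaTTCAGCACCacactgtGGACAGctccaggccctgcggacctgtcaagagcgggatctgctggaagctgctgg
Grik5: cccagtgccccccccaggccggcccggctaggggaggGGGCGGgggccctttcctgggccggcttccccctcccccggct
Gabbr1: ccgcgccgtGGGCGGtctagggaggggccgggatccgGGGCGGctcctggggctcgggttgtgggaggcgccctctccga

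TTCAGCACC and GGACAG are parts of the element bound by REST, a repressor of neuronal genes, and GGGCGG is the core of the GC box bound by Sp factors. The letters were chosen after matches in these promoters had been seen, and both strands were searched. AGCAC followed after 3 bases by GGACAG was in 1 of 50 receptor promoters and in 0.0800% of coding promoters, and TTCAGCACC was in 1 of 50 and in 0.329%. GGACAG alone was in 42.0% of receptor promoters and in 18.8% of coding promoters. GGGCGG was in 60.0% of receptor promoters against 42.6%, and the TATA box letters TATAAA were in 5 of 50 against 11.6%. The median number of CpG dinucleotides was 13 in receptor promoters and 10 in coding promoters. It was 16 for the 21 receptor genes at 1 RPKM or more and 10 for the 29 genes under it, with ranges of 0 to 42 and 1 to 41 that overlapped almost wholly.

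For the genotype comparison, no receptor gene passed an adjusted p of 0.05 in edgeR's quasi-likelihood test over all 15708 genes tested, in either direction, and 0 passed with DESeq2 or limma-voom. Over all genes 0.0% were called higher and 0.00637% lower in KO. At an unadjusted p of 0.05, 3 of the 64 tested receptor genes passed (Gabra2, Grm7 and Drd1, all with higher KO values), where 4.7% of all tested genes did. Both KO libraries were above both WT libraries for 17 of the 64 genes and below them for 4, beside 20.1% and 19.4% of all genes. The log2 fold change was above 0 for 40 of the 64 receptor genes with a median of 0.03, against 48.9% of all genes with a median of -0.01. The receptor median was 0.11 without KO2 and 0.090 without WT6. Fold changes ran from -0.57 for Gabrq to 0.74 for Grm8.

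How small a difference could be seen depended on the level. The median distance from a receptor gene's fold change to the end of its 95% interval was 0.59 on the log2 scale, against 0.34 for all tested genes. It was 0.34 for the 30 receptor genes at 1 RPKM or more and 0.79 for the tested genes under it. Of the 64 tested genes, 56 reached the filter level in all 4 libraries, 4 reached it in both KO libraries but not both WT libraries, and 1 the reverse. Every fold change below is KO over WT on the log2 scale, with its SE, and the adjusted p is edgeR's over all genes.

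**Figure D2:**
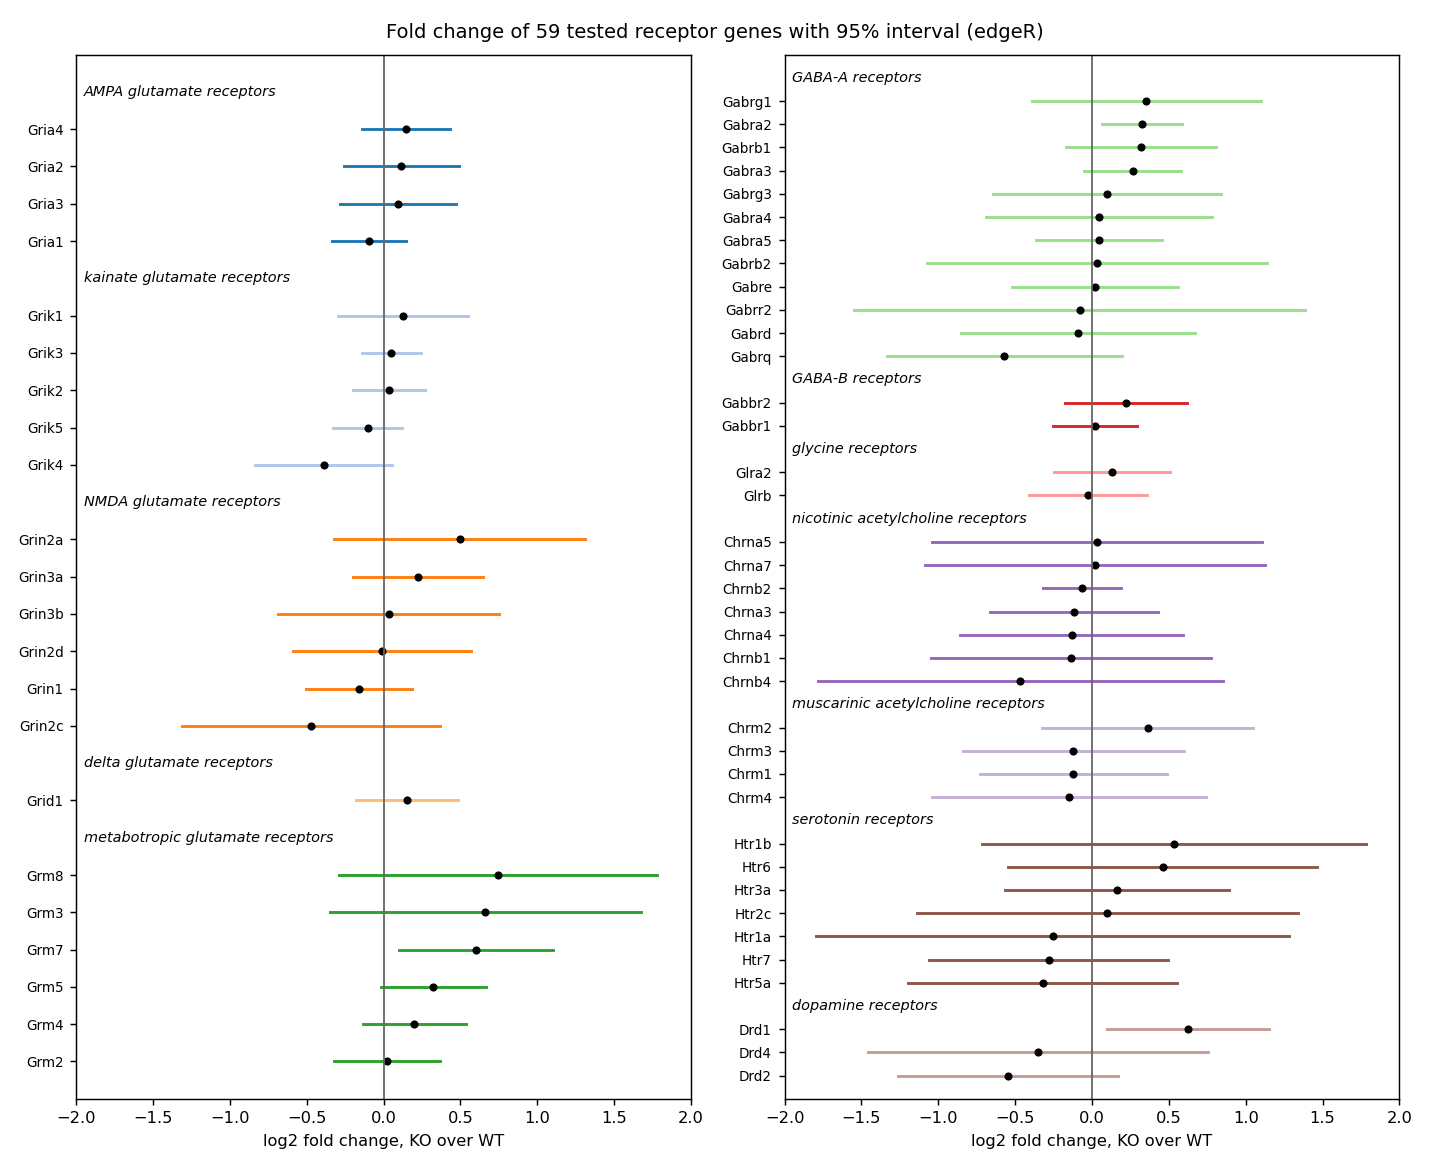
Log2 fold change of KO over WT for 59 tested receptor genes, by class, as a point with a line for its 95% interval. No gene passed an adjusted p of 0.05, and intervals are widest for the low serotonin and nicotinic genes.

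AMPA receptors carry most fast excitation in the mature brain, and their 4 subunits summed to 34.8 RPKM. Gria1 made up 41.3% and Gria2, the subunit that makes the channel impermeable to calcium once edited, made up 38.1% of this sum. Gria1 measured 83.9 and 84.3 CPM in KO2 and KO4 and 97.4 and 82.5 CPM in WT6 and WT8. The high value was WT6, the groups overlapped, and the log2 fold change was -0.10 (SE 0.10). Gria2 measured 197 and 233 CPM in KO2 and KO4 and 228 and 169 CPM in WT6 and WT8, with a log2 fold change of 0.11 (SE 0.16). Here WT8 was lowest and the groups overlapped again. Gria4 at 4.72 RPKM had both KO libraries above both WT libraries (fold change 0.14), and X-linked Gria3 at 2.44 RPKM had a fold change of 0.09.

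Kainate receptors were the class with the largest summed level, 77.0 RPKM, of which Grik5 made up 71.3%. The GluK5 subunit encoded by Grik5 binds glutamate with high affinity but forms channels only together with a subunit such as those of Grik1, Grik2 or Grik3. Grik5 measured 284 and 263 CPM in KO2 and KO4 and 282 and 306 CPM in WT6 and WT8, with the groups overlapping and a log2 fold change of -0.10 (SE 0.09). Its 95% interval ran from -0.33 to 0.12. Grik3 measured 135 and 138 CPM in KO2 and KO4 and 133 and 131 CPM in WT6 and WT8, which put both KO libraries just above both WT libraries at a fold change of 0.05 (SE 0.08). The partner subunits Grik2 at 4.24 and Grik1 at 1.87 RPKM had fold changes of 0.03 and 0.13. Grik4, the other high-affinity subunit, measured 5.24 and 5.19 CPM in KO2 and KO4 and 6.45 and 7.2 CPM in WT6 and WT8. Both KO libraries were below both WT libraries, with a fold change of -0.39 (SE 0.19, adjusted p = 0.743 by edgeR).

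The NMDA receptor genes described here were low, with Grin1 at 1.99 RPKM, Grin2d at 1.42, Grin3a at 0.823, Grin3b at 0.573, Grin2c at 0.226 and Grin2a at 0.0689 RPKM. Grin1 encodes the obligatory subunit, Grin2d a subunit known from embryonic brain, and Grin2a a subunit known to appear mostly after birth. Grin1 measured 19.8 and 16.7 CPM in KO2 and KO4 and 21.3 and 19.4 CPM in WT6 and WT8. WT6 was highest and KO4 lowest, the groups overlapped, and the fold change was -0.16 (SE 0.14). Grin2d measured 10.6 and 8.24 CPM in KO2 and KO4 and 7.56 and 11.5 CPM in WT6 and WT8, so that the highest and lowest library were both WT and the fold change was -0.0078 (SE 0.24). Grin2a, with 26, 27, 18 and 16 reads in KO2, KO4, WT6 and WT8, had both KO libraries higher, and Grin2c, with 17, 18, 23 and 21 reads, had both lower. Exons of Grin1os cover 1307 exon bases of Grin1, and 32.1% of those of Grin3b overlap Tmem259. The sources used here do not say whether reads were counted by strand, so reads of such overlaps cannot be assigned with certainty.

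Delta receptors are relatives of the ionotropic glutamate receptors that act as synaptic organisers. Grid1 was at 2.34 RPKM. Grid1 measured 14.8 and 14.5 CPM in KO2 and KO4 and 12.7 and 13.7 CPM in WT6 and WT8. Both KO libraries were above both WT libraries, with a fold change of 0.15 (SE 0.14).

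Metabotropic glutamate receptors had fold changes above 0 for all 7 genes, with a median of 0.32, beside 48.9% above 0 over all tested genes. Of the 7, 5 had both KO libraries above both WT libraries, where 20.1% of all tested genes did. None passed the test, and the summed level was 8.82 and 8.70 RPKM in KO2 and KO4 and 7.25 and 7.68 RPKM in WT6 and WT8. Summed over these genes, the lower KO library was above the higher WT library. Grm2, a presynaptic inhibitory receptor, was the highest at 2.51 RPKM, though Grm4 was above it per length of the longest transcript. It measured 12.5 and 12.2 CPM in KO2 and KO4 and 11.7 and 12.7 CPM in WT6 and WT8, with a fold change of 0.02 (SE 0.14) and overlapping groups. Grm4, also a presynaptic receptor, measured 14.6, 14.8, 12.2 and 13.4 CPM in the same order, with both KO libraries higher and a fold change of 0.20 (SE 0.14).

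Grm5, the receptor coupled to calcium release that is prominent in immature neurons, measured 17.1 and 15.0 CPM in KO2 and KO4 and 12.8 and 12.8 CPM in WT6 and WT8. Both WT libraries were below both KO libraries, and the fold change was 0.32 (SE 0.14). Grm7 measured 5.02 and 5.51 CPM in KO2 and KO4 and 3.43 and 3.51 CPM in WT6 and WT8. The gap between the genotypes was wider than that within either, with a fold change of 0.60 (SE 0.21, adjusted p = 0.743 by edgeR). Grm8, a low-level relative of Grm7 with 32, 22, 11 and 18 reads in KO2, KO4, WT6 and WT8, had a fold change of 0.74 (SE 0.43), the highest over all 4 libraries. It was 0.38 without WT6 and 1.20 without WT8, and Grm7, Drd1 and Htr6 were among those above it without WT6. KO4 was close to WT8 for Grm8, at 1.20 against 1.13 CPM, and KO2 was the high library. Grm3 at 0.306 RPKM had both KO libraries higher on 25, 17, 14 and 10 reads.

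GABA-A receptors are chloride channels that depolarise many immature neurons, and the 15 subunit genes summed to 30.5 RPKM. Among them were the alpha subunits Gabra3 at 4.47, Gabra2 at 3.82 and Gabra5 at 3.37 RPKM. Gabrb2, a beta subunit that prevails in adult cortex, was at 0.110 RPKM. Fold changes were above 0 for 12 of the 15 genes with a median of 0.05, and 4 had both KO libraries above both WT libraries, beside 48.9% above 0 and 20.1% not overlapping in this direction over all tested genes.

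Gabra2 measured 32.5 and 32.5 CPM in KO2 and KO4 and 27.1 and 24.7 CPM in WT6 and WT8. Both KO libraries were above both WT libraries, and the fold change of 0.33 (SE 0.11, 95% interval 0.06 to 0.59) had the smallest unadjusted p of the receptor genes and an edgeR adjusted p of 0.743. Gabra3, on the X chromosome, measured 19.2 and 19.1 CPM in KO2 and KO4 and 16.7 and 15.2 CPM in WT6 and WT8. The KO libraries were again both above the WT libraries, with a fold change of 0.26 (SE 0.13).

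Gabrq, the theta subunit gene, measured 1.86 and 1.69 CPM in KO2 and KO4 and 2.09 and 3.19 CPM in WT6 and WT8. WT8 was the high library, both KO libraries were below both WT libraries, and the fold change was -0.57 (SE 0.32), or -0.23 without WT8. It lies beside Gabra3 on the X chromosome, and the 2 genes had fold changes of opposite sign. Of the low subunits, Gabrb1 at 0.40 RPKM had both KO libraries higher (fold change 0.32), and the groups of Gabre, Gabra4, Gabrd, Gabrg1, Gabrr2, Gabrg3 and Gabrb2, all under 1 RPKM, overlapped.

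The GABA-B receptor is a pair of unlike subunits, and its genes differed widely in level: Gabbr1 held 94.4% of their summed 33.4 RPKM, and Gabbr2, which couples to the G protein, was at 1.87 RPKM. Gabbr1 measured 239 and 254 CPM in KO2 and KO4 and 267 and 219 CPM in WT6 and WT8. The 2 WT libraries were the highest and the lowest, and the fold change was 0.02 (SE 0.11, 95% interval -0.25 to 0.30). Gabbr2 measured 13.7 and 13.3 CPM in KO2 and KO4 and 12.9 and 10.2 CPM in WT6 and WT8. WT8 was low, both KO libraries were above both WT libraries, and the fold change was 0.22 (SE 0.17), or 0.067 without WT8 and 0.40 without WT6.

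Among the glycine receptor genes Glra2, the alpha subunit of the embryonic receptor, held 74.9% of the summed 13.8 RPKM. Glra2 measured 31.9 and 35.9 CPM in KO2 and KO4 and 35.6 and 26.4 CPM in WT6 and WT8, with overlapping groups and a fold change of 0.13 (SE 0.16). Glrb, the beta subunit that anchors the receptor, measured 14.2, 17.3, 17.2 and 14.8 CPM in the same order. KO2 and WT8 were low and KO4 and WT6 high, and the fold change was -0.02 (SE 0.16). Glra3 had 10, 11, 4 and 0 reads in KO2, KO4, WT6 and WT8, too few for the test.

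Nicotinic receptors are acetylcholine-gated channels, and Chrnb2, the beta subunit of the main brain receptor, held 69.5% of their summed 15.3 RPKM. Its alpha partner Chrna4 was at 2.34 RPKM, and Chrna7, which forms channels on its own, at 0.174 RPKM. Chrnb2 measured 84.0 and 90.0 CPM in KO2 and KO4 and 99.1 and 83.2 CPM in WT6 and WT8, with overlapping groups and a fold change of -0.07 (SE 0.11). Of its exon bases 16.3% overlap those of Adar on the opposite strand. Chrna4 measured 10.4 and 12 CPM in KO2 and KO4 and 8.25 and 16.3 CPM in WT6 and WT8. The 2 WT libraries lay on either side of both KO libraries and differed by 0.98 on the log2 scale, against a genotype fold change of -0.13 (SE 0.30). Of the 7 tested nicotinic genes 2 had fold changes above 0, the median was -0.12, and the groups overlapped for all 7. Chrna2 had 7, 18, 5 and 6 reads in KO2, KO4, WT6 and WT8 and was not tested.

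Muscarinic receptors are the G protein-coupled acetylcholine receptors, and their 4 genes summed to 2.78 RPKM. Chrm4, an inhibitory receptor, measured 1.64 and 1.53 CPM in KO2 and KO4 and 1.28 and 2.25 CPM in WT6 and WT8, with a fold change of -0.15 (SE 0.37). Chrm1, an excitatory receptor, measured 6.49, 5.68, 8.08 and 5.14 CPM in the same order, with a fold change of -0.12 (SE 0.26). In both genes the WT libraries enclosed the KO libraries. Chrm2, at 0.325 RPKM, had both KO libraries higher, and the groups of Chrm3, at 0.314 RPKM, overlapped.

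The serotonin receptor genes summed to 4.88 RPKM, of which Htr3a held 65.7%. Htr3a encodes the serotonin-gated ion channel and marks a family of cortical interneurons that arise in the ventral forebrain. Htr3a measured 7.64 and 6.44 CPM in KO2 and KO4 and 4.36 and 8.27 CPM in WT6 and WT8. WT6, which was also the low library for the ventral forebrain markers, was lowest, the groups overlapped, and the fold change was 0.16 (SE 0.31). Htr6, a receptor coupled to cyclic AMP, measured 1.09, 1.47, 1.16 and 0.689 CPM in the same order, with overlapping groups and a fold change of 0.46 (SE 0.42) that ran from 0.15 without WT8 to 0.89 without WT6. Htr7 had both KO libraries lower and Htr1b both higher, on 5 to 29 reads per library, and the groups of Htr5a, Htr1a and Htr2c overlapped. Htr1b had 11, 13, 10 and 5 reads in KO2, KO4, WT6 and WT8. It reached the filter level in both KO libraries but not in WT8, and it is among the 17 genes counted with KO above WT. Htr1d with 1, 1, 1 and 4 reads and Htr5b with 2, 1, 6 and 2 reads in KO2, KO4, WT6 and WT8 were not tested.

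The 3 dopamine receptor genes summed to 3.36 RPKM. Drd1, which couples to activation of cyclic AMP and marks one output pathway of the striatum, measured 5.35 and 4.69 CPM in KO2 and KO4 and 3.43 and 3.07 CPM in WT6 and WT8. Both KO libraries were above both WT libraries, with a fold change of 0.63 (SE 0.22, 95% interval 0.10 to 1.15, edgeR adjusted p = 0.743). Drd2, the inhibitory receptor of the other output pathway, measured 3.55 and 4.15 CPM in KO2 and KO4 and 4.13 and 7.14 CPM in WT6 and WT8. The other 3 libraries lay together and WT8 was high, so that the groups overlapped and the fold change was -0.55 (SE 0.30). Without WT8 the Drd2 fold change was -0.097. Drd4, at 0.359 RPKM, had a fold change of -0.35 with overlapping groups. The markers of ventral forebrain, the region that gives rise to the striatum, had a median fold change of 0.30 with 8 of 8 above 0 and a low WT6. Those of dorsal telencephalon had a median of -0.17 with 5 of 6 below 0 and a high WT6. Over all tested genes 48.9% were above 0. In both lists the summed CPM of each KO library lay between those of WT6 and WT8. The part of these markers in the Drd1 value was not tested.

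A further 7 receptor genes were listed in 1 table only and are not among the 68. Chrna1 had 3 reads in KO4 and 1 in WT8, Chrne had 2 and 2, Glra4 1 and 1, Htr1f 1 and 1, Htr2a 7 and 0, and Htr4 7 and 1. Grm6 had 2 reads in KO2 and 3 in WT6. None of them had a value in all 4 libraries.

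For the receptor genes, single libraries of a genotype differed at the median by more than the genotype means. Over the 64 tested receptor genes the median absolute log2 difference was 0.19 between KO2 and KO4, 0.25 between WT6 and WT8 and 0.15 between the genotype means. For all tested genes these values were 0.12, 0.19 and 0.14. The WT libraries differed by more than the genotype means for 44 of the 64 receptor genes, or 68.8%, against 63.2% of all genes. A difference between single libraries is wider by construction than one between means of 2. The lowest value was in WT8 for 25 receptor genes, beside 34.0% of all genes, and in WT6 for 18, beside 20.7%. It was in KO2 for 11, beside 19.0%, and in KO4 for 10, beside 26.4%.

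**Figure D3:**
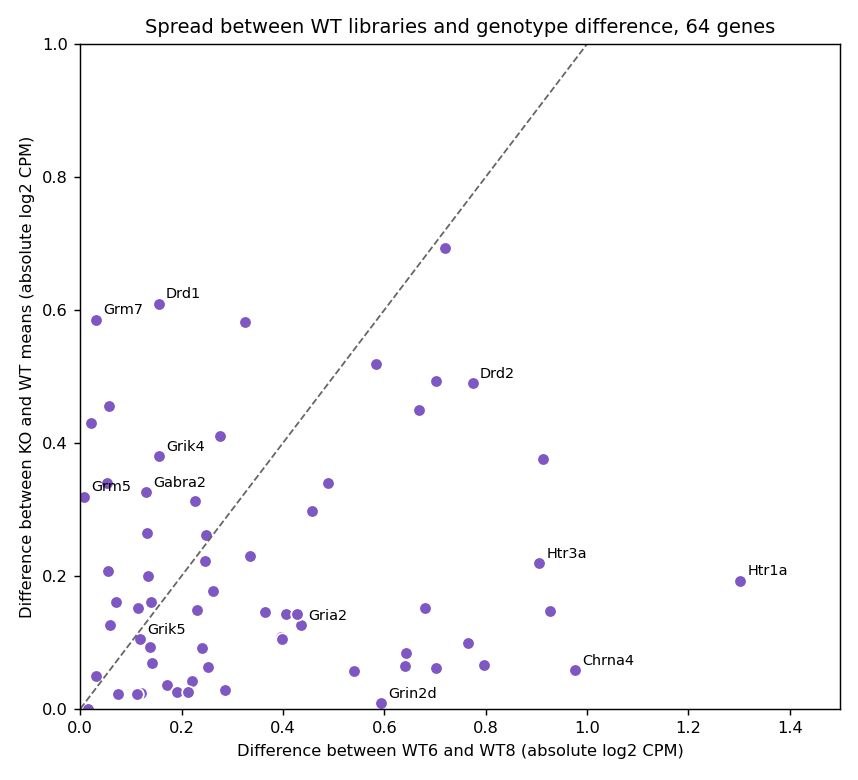
Absolute log2 difference between the 2 WT libraries against that between the genotype means, in log2 CPM, 1 point per tested receptor gene, with a dashed line of equality. Most points, 44 of 64, lie on the side where the WT libraries differ more.

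The deposited tables pair KO2 with WT6 and KO4 with WT8, so each compares single libraries and the pairs share none. The log2 ratio was above 0 for 32 of 64 receptor genes for KO2 over WT6 and for 40 genes for KO4 over WT8, with medians of -0.01 and 0.10. It was above 0 in both pairs for 18 genes and below 0 in both for 10, against 3997 and 3844 of 15708 genes. Gabra2 had ratios of 0.26 and 0.39, Grm7 of 0.53 and 0.64, and Drd1 of 0.62 and 0.60. Opposite ratios appeared for Htr3a, at 0.79 and -0.35, for Grin2d, at 0.49 and -0.47, and for Chrna4, at 0.33 and -0.45.

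**Figure D4:**
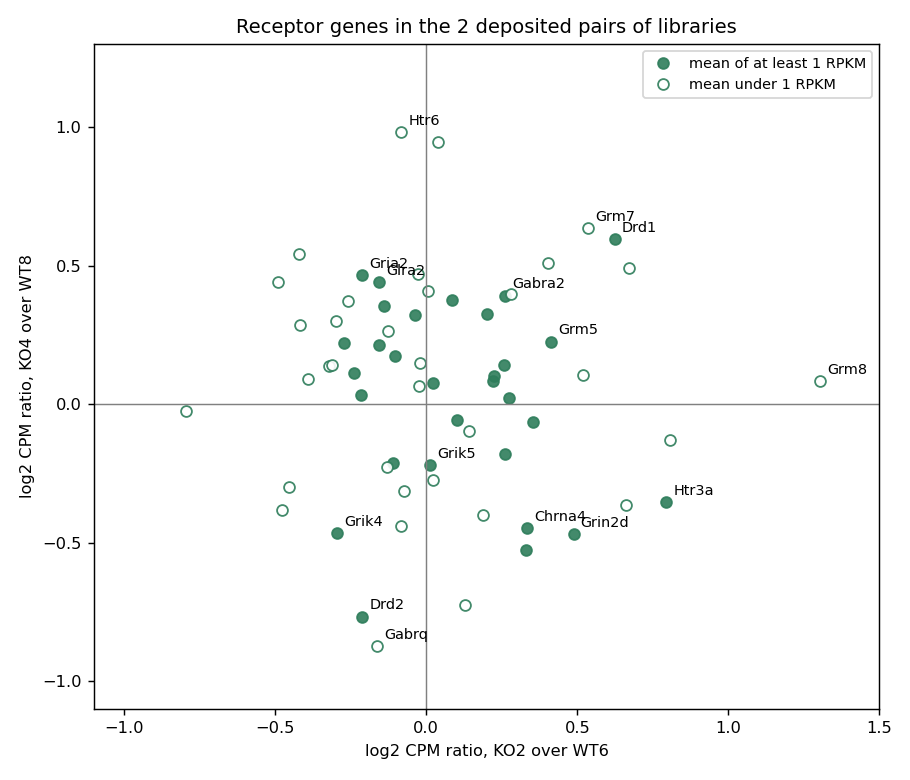
Log2 ratio of KO4 over WT8 against that of KO2 over WT6, 1 point per tested receptor gene, filled at a mean of 1 RPKM or more and open under it. Points lie on every side of the 2 zero lines, with 18 of 64 above 0 and 10 of 64 below 0 in both pairs.

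In the authors' deposited tables a gene can be marked by an adjusted p under 0.05 together with a log2 ratio of at least 1 in size. For KO2 over WT6 the authors' deposited table held 1 such receptor gene of 68, Grm8 at a log2 of 1.46, beside 1.86% of all its genes. For KO4 over WT8 the authors' deposited table held 3 of 68, Chrna2 at 1.45, Glra3 at 4.32 and Htr6 at 1.16, beside 5.05% of all its genes. No receptor gene passed both marks in both of the authors' deposited tables. These rest on 1 library a group and have no replicate check, and Glra3 was read from 11 reads against 0.

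Several receptor genes lie in groups of neighbours within 1000000 bases on GRCm38, and neighbours differed in level. On chromosome 5, Gabra2 at 70957597 to 71095849 was at 3.82 RPKM, while Gabrg1, Gabra4 and Gabrb1 beside it were at 0.347, 0.635 and 0.40 RPKM. On chromosome 7, Gabra5 at 57407672 to 57510059 was at 3.37 RPKM and Gabrg3 at 0.186 RPKM. Gabra3 was the high gene of the X-linked group, at 4.47 RPKM against 0.749 for Gabre and 0.413 for Gabrq. All 3 nicotinic genes of the chromosome 9 group were low, with Chrna3 at 0.962, Chrna5 at 0.233 and Chrnb4 at 0.200 RPKM.

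**Figure D5:**
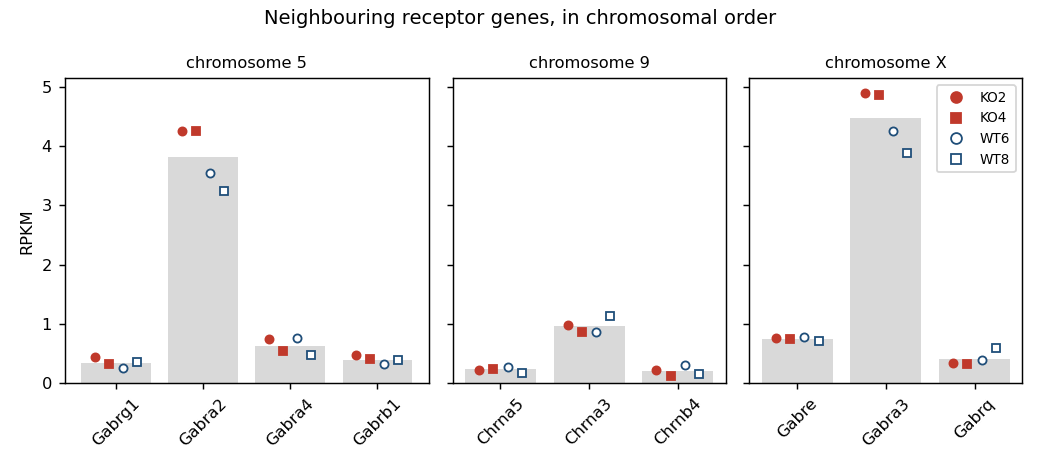
Level in RPKM of receptor genes in 3 of the groups of 3 or more neighbours within 1000000 bases, by chromosome, with the mean as a bar and each library as a point. Gabra2 and Gabra3 are the high genes of their groups, at 3.82 and 4.47 RPKM, and the other genes shown average under 1 RPKM.

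Genes that act with the receptors were read from lists chosen by function, and no gene in them passed edgeR's test over all genes. The 27 glutamate receptor auxiliary and scaffold genes had a median fold change of -0.03 with 11 above 0. The smallest p values were those of Neto2, an auxiliary subunit of kainate receptors, at 0.18 and of Dlg4, which encodes the scaffold PSD-95, at -0.21. Of the 16 genes of GABA and glycine receptor clustering and traffic, 15 were tested with a median of 0.05, led by Kctd8, a GABA-B auxiliary subunit, at 0.58 and Slitrk3, an adhesion protein of inhibitory synapses, at 0.36. The chloride transporters Slc12a2, which loads chloride into immature neurons, and Slc12a5, which extrudes it, had fold changes of 0.24 and 0.10. The 7 acetylcholine receptor chaperones and modulators had a median of 0.03, led by Lypd1 at 0.53 and Ly6h at -0.13.

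Transmitter supply genes were read in the same way. The tested genes of glutamate synthesis and transport had a median of 0.01, led by the glutamate transporters Slc1a2 at 0.11 and Slc17a7 at -0.15. For GABA and glycine the median was 0.10 with 6 of 7 above 0, with the GABA-degrading enzyme Abat at 0.36. Summed over that list, WT6 was low at 324 CPM against 453 to 467 CPM in the other libraries, as it was for the ventral forebrain markers. Of the acetylcholine genes, the choline transporter Slc5a7 had 13, 16, 4 and 3 reads in KO2, KO4, WT6 and WT8, a fold change of 1.87 on few reads that entered the test only through the KO libraries, and the vesicular transporter Slc18a3 had -0.42. The monoamine genes had a median of -0.05, with Slc18a2, the vesicular monoamine transporter, at 0.32.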

How the data were processed

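RNA sequencing gave 2 KO and 2 WT brain libraries. The deposited tables hold whole-number read counts per gene, CPM, the authors' ratios of single libraries, their log2 and p-values, per the file headers. Build mm9 and the tools TopHat2 2.0.12, Bowtie2 2.2.3 and HTSeq 0.6.0 are listed, without roles, per the submitters' processing notes; the deposited positions equal GENCODE M21 on GRCm38 for 65 of 68 members, so GRCm38 positions are given. From the counts, genes in both tables were filtered by filterByExpr, scaled by TMM and fitted in edgeR 4.0.16 (R 4.3.3) by genotype. Benjamini-Hochberg adjustment was over all genes, with a threshold of 0.05. A prior count of 2 was used for the log2 levels of single libraries behind the pair ratios and library differences. The fitted fold changes did not use it. The fit was also run on simulated data, and the outcome of that run is not reported here. RPKM used the union of GENCODE M21 exons. Named genes are the 2 highest of each class, the 10 with the smallest p, and those listed in 1 table only. For lists, the 2 genes with the smallest p are named. Members and lists were chosen with earlier results of these data known. The name rule left out 1 gene, and it and some genes that these rules pick are not reported here. Alternatives used DESeq2 1.42.0, limma-voom (limma 3.58.1), other scaling and filters, a pair block and leaving out each library. The authors' deposited ratios compare 1 library a group and were used only as described.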

Additional observations from a re-analysis of the deposited data

How the results depend on the processing

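No receptor gene passed an adjusted p of 0.05 under any of the 11 alternatives. Over all genes, 1 gene was called lower and 0 higher. Scaling by library totals and the pair block called 2 lower, and DESeq2 called 2 higher and 2 lower. Without 1 library the calls ran from 0 to 67 higher and from 0 to 37 lower, with 37 lower without WT8 and 0 without WT6, and the H2afy call was lost without WT6 (log2 -2.29, edgeR adjusted p = 0.314). The 28 named receptor genes gave 308 values under alternatives, of which 288 kept their direction and 20, in 12 genes, turned. Gabra2, Grm7 and Drd1 kept theirs throughout. Library totals gave Glrb 0.012 and Grin2d 0.033, limma-voom gave Grin2d 0.018, and the pair block gave Grin2d 0.0068. Without 1 library the log2 fold change ran from -0.17 to 0.12 for Glrb, -0.11 to 0.17 for Gabbr1, -0.082 to 0.35 for Gria2, -0.28 to 0.32 for Grin2d, -0.40 to 0.24 for Chrm1, -0.18 to 0.062 for Chrnb2, -0.21 to 0.026 for Gria1, -0.039 to 0.089 for Grm2, -0.23 to 0.69 for Htr3a, -0.51 to 0.31 for Chrm4, -0.55 to 0.44 for Chrna4 and -0.064 to 0.36 for Glra2. The cause was not tested. The replicate numbers 2 and 4 of KO are not shared with the 6 and 8 of WT, so they pair no libraries, and the pair block used the deposited pairs. The receptor median of 0.03 was 0.069 with library totals and ran from 0.034 to 0.11 without 1 library. With 2 libraries a group an exact permutation test of a single value cannot give a two-sided p below 0.333, and receptor genes under 1 RPKM had wide intervals.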
